A study of Mus musculus with 54 samples.

Results

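The 79 genes described here were the potassium channel genes of the mouse brain count table. They were the protein-coding rows whose symbol, in the GRCm38 annotation, is Kcn followed by one of the subfamily letters a to h, j, k, m, n, q or s to v and a number, without Kcne2 and Kcnj13. They made up 79 of 21560 protein-coding rows and fell into 16 subfamilies that held between 1 and 14 genes. Cortex, striatum and cerebellum were sequenced, 1 library per mouse and region, from 18 mice of the C57BL/6 background, all 8 weeks old: 10 were Mbd5+/GT and 8 were wild-type (WT) littermates. They came from 3 litters. The 6 mice of litter 1, 3 per genotype, were female. Litter 2 was male, with a single WT mouse beside 4 Mbd5+/GT mice, and litter 3 was mixed in sex, with 4 WT and 3 Mbd5+/GT mice. The striatal libraries of WT mice M751 and M752 are marked in the labels as repeats. The Mbd5+/GT mice carry 1 copy of a gene trap (pU-21B) in the second intron of Mbd5, a methyl-CpG-binding domain gene, a hypomorphic allele. The WT mice carry no engineered allele. The tissue was dissected, frozen and lysed whole, so that each value is an average over neurons, glia and vessels, and fewer cells of a type cannot be told apart from less RNA per cell.

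Potassium channels let potassium leave the cell and thereby set the resting potential, shorten the action potential and limit how fast a neuron fires. Voltage-gated subunits (Kcna, Kcnb, Kcnc, Kcnd, Kcnh, Kcnq) assemble as tetramers, and the Kcnf, Kcng, Kcns and Kcnv subunits are silent on their own and modify Kcnb channels. Inward rectifiers (Kcnj) and leak channels (Kcnk) hold the resting potential, Kcnn channels open on calcium, Kcnt channels on sodium, and Kcne genes encode small accessory subunits.

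The stretches just upstream of a transcription start of 4 members are shown because these genes had some of the largest differences between cerebellum and forebrain. Each line gives the 250 bases before the RefSeq transcription start (GRCm38.p6), written along the gene's own strand, with every CG dinucleotide in capitals. No annotated exon lies in these windows. The Kcnj12 window lies inside the annotated gene (chr11:61022564-61071131), so it is not upstream of the whole gene.
Kcnj4 (minus strand, chr15:79505242-79505491): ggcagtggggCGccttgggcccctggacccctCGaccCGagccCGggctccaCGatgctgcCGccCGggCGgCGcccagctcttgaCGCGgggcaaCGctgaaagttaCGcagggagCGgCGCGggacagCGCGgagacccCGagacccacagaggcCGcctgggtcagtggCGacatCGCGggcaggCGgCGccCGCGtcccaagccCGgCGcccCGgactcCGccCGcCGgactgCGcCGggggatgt
Kcnf1 (minus strand, chr12:17176889-17177138): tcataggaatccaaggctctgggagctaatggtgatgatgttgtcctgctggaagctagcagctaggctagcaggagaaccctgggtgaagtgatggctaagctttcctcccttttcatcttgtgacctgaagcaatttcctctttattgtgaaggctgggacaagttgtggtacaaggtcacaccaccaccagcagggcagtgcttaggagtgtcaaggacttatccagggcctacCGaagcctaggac
Kcng4 (minus strand, chr8:119635681-119635930): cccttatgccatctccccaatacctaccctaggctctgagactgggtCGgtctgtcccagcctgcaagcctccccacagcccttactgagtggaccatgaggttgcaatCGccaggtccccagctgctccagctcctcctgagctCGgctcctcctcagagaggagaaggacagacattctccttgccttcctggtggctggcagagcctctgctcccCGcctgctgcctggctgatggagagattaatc
Kcnj12 (plus strand, chr11:61065554-61065803): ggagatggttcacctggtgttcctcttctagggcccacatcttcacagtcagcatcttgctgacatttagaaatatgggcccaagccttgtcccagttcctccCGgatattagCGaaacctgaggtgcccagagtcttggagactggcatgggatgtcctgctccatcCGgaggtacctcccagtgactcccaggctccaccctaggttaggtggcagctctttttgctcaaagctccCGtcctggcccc
Kcnj4 and Kcnf1, both near 0 in cerebellum and high in the forebrain, differed widely in CG content. Kcnj4 held 35 CG dinucleotides and Kcnf1 held 1. Kcng4 and Kcnj12, both high in cerebellum, held 4 each. At least 10 CG dinucleotides were present in 32 of the 70 windows that the table lists for 55 of the 79 members (45.7%) and in 37.8% of all 32851 windows. The letters GGGCGG were found on either strand in Kcnj4 alone of these 4, in 48.6% of member windows and in 32.7% of all windows. TATAAA was in 2.86% of member windows and in 12.4% of all windows, and in none of the 4. CANNTG was in Kcng4 and Kcnj12, in 67.1% of member windows and in 66.2% of all windows. TGACGTCA was in 0 of the 70 member windows and in 1.55% of all windows. These are matches of letters in a fixed window, the motifs were searched on both strands, and each match of GGGCGG or TGACGTCA contains a CG.

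The libraries held 25295973 to 49027399 reads on genes, and the 79 members took 0.273% to 0.578% of them. Levels are given as CPM, read counts scaled to a common library size by the trimmed mean over all libraries, or as CPM per kb of exon where genes are compared with each other. Mbd5, the trapped gene, was lower in the Mbd5+/GT libraries of each region. In cortex its median was 45.8 CPM (40.6 to 53, n = 10) against 68 CPM in WT (47.7 to 75.6, n = 8). The log2 difference, Mbd5+/GT minus WT, was -0.49 (SE 0.05) in cortex, -0.51 (SE 0.05) in striatum and -0.34 (SE 0.05) in cerebellum, with adjusted p of 0.00012, 9.41e-05 and 0.00912 (Benjamini-Hochberg) in edgeR's quasi-likelihood test. The groups overlapped in each region. With litter and sex in place of the surrogate variables of the fit, the differences were -0.48, -0.43 and -0.31 and the adjusted p were 0.796, 0.529 and 1.

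Several libraries held little of their own region's markers. For each region the summed level of a marker list (granule cell genes for cerebellum, striatal projection neuron genes for striatum) was set against the median of that region. The cerebellar library of Mbd5+/GT mouse M755 reached 1.62% of the median, and its oligodendrocyte marker sum was the highest of the 54 libraries at 30510 CPM. The cerebellar library of WT mouse M754 reached 32.5%. In striatum, the libraries of WT mice M754 and M761 reached 7.86% and 18.4%, and those of Mbd5+/GT mice M763, M756 and M755 reached 38.1%, 44.6% and 47.1%. The libraries are used as labelled, and results are also given without those under 25% or under 50% of the median.

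A mean of at least 1 CPM was reached by 64 cortical, 62 striatal and 57 cerebellar members. Summed over all members, CPM had a median of 4646 in cortex (3731 to 5875), 3586 in striatum (2535 to 4285) and 4908 in cerebellum (4294 to 5970), each over 18 libraries. The cortical range overlapped both others, and the striatal and cerebellar ranges did not overlap.

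**Figure D1:**
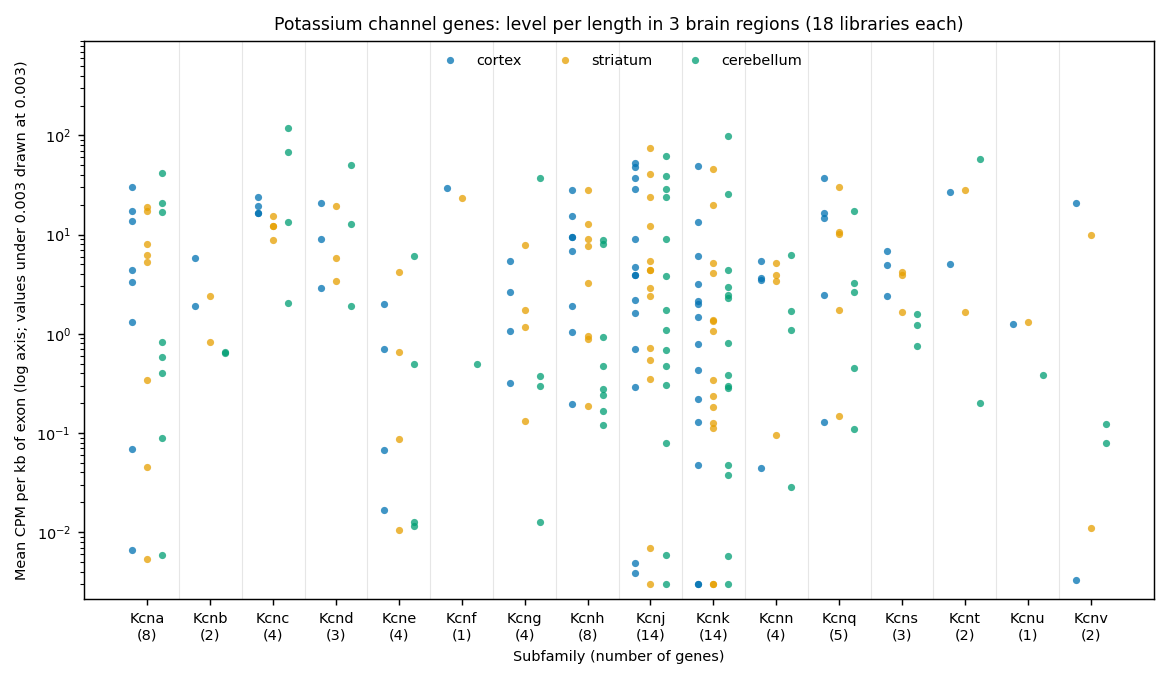
Mean level of each member, as CPM per kb of exon on a log axis, by subfamily and region, with 1 point per gene and 18 libraries behind each mean. The single Kcnf gene falls from 29.2 CPM per kb in cortex to 0.492 in cerebellum.

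Among the voltage-gated subunits that open the pore, the Kcnc genes encode fast delayed rectifiers that repolarise neurons firing at high rates. Kcnc1 stood at 67.4 ± 13.8 CPM per kb (SD, n = 18) in cerebellum and led its subfamily in cortex, at 23.7 ± 3.99, and in striatum, at 15.2 ± 2.98. The 4 Kcnc genes summed to 202 ± 26 CPM per kb in cerebellum, against 76.4 ± 11.7 in cortex and 48.4 ± 11.5 in striatum. No cerebellar library fell to the range of another region.

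Kcna2, an axonal delayed rectifier, led the Kcna genes in cortex (30.4 ± 5.28 CPM per kb) and cerebellum (42.1 ± 9.35). In striatum Kcna6 stood first at 19.1 ± 3.9, with Kcna2 at 17.5 ± 2.94, a gap within the spread of either gene. Exons of Kcna6 overlap those of Gm26673 on the other strand, and 15 members in all have such an overlap. The strand used in counting was not given in the sources used here, so reads of such pairs cannot be told apart.

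Kcnd2, which carries the somatodendritic A current, led its subfamily in the 3 regions and reached 50.6 ± 13.1 CPM per kb in cerebellum. Kcnh genes were led by Kcnh3 in cortex (28.5 ± 6.16) and striatum (28.4 ± 8.09), while in cerebellum Kcnh2 (8.8 ± 5.73) and Kcnh1 (8.03 ± 2.12) differed by less than their spread. Kcnh2 encodes an ERG-type channel, and the cerebellar libraries of mice M755 and M754 held 125 and 108 CPM of it against 24.1 to 47.7 CPM in the others. Without these 2 libraries Kcnh1 led, at 8.46 ± 1.80 CPM per kb (SD, n = 16) beside 6.89 ± 1.37 for Kcnh2.

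Of the channels that hold the resting potential, Kcnk1 ranked second of all members in each region. Kcnk1 encodes a weakly conducting leak channel and stood at 49.1 ± 5.2 CPM per kb in cortex, 45.7 ± 9.46 in striatum and 99.6 ± 20.3 in cerebellum. Kcnj4, a strong inward rectifier, ranked first in cortex at 52.8 ± 12.4 and in striatum at 74 ± 23.9. In cerebellum it ranked 55, at 0.302 ± 0.21. Kcnj10, the inward rectifier by which astrocytes and other glia buffer potassium, led the Kcnj genes in cerebellum at 61.6 ± 34.3. Its median there was 264 CPM (216 to 873), and the highest value was that of mouse M755.

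Among the channels opened by sodium or calcium, Kcnt1 was higher in cerebellum and Kcnn2 stood at like levels in the 3 regions. Kcnt1, a sodium-activated channel, stood at 27 ± 3.24 CPM per kb in cortex, 28.3 ± 5.33 in striatum and 57.9 ± 13.6 in cerebellum. Kcnn2, a small-conductance calcium-activated channel, stood at 5.45 ± 0.575, 5.17 ± 1.02 and 6.22 ± 0.549 in the same order. Kcnu1, which is outside these classes and better known from sperm, was at 1.25 ± 0.161, 1.31 ± 0.251 and 0.38 ± 0.239.

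The silent modifier subunits were led by different genes in forebrain and cerebellum. Kcnf1 stood at 29.2 ± 7.62 CPM per kb in cortex and 23.7 ± 8.79 in striatum, and Kcnv1 at 20.9 ± 4.03 and 10 ± 3.75. In cerebellum these genes were at 0.492 ± 0.452 and 0.0798 ± 0.105. There Kcng4 was the most abundant silent subunit, at 37.1 ± 6.8, while Kcng1 led its subfamily in cortex (5.46 ± 2.31) and striatum (7.84 ± 1.93). Kcns1 led in cortex (6.77 ± 3.26) and striatum (4.25 ± 1.31) and Kcns2 in cerebellum (1.57 ± 0.342). The accessory subunit genes were low, with Kcne1l the highest at 2.01 ± 0.598, 4.24 ± 1.13 and 6.02 ± 1.25.

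Of the 79 members, 73 passed the filter on low counts over all libraries (more than 4 counts in at least 8 of 54 libraries). The 6 that did not were Kcna7, Kcne1, Kcnj1, Kcnj15, Kcnk16 and Kcnk18. None of them exceeded 10 counts in any library, and Kcnk16 had 0 counts in all 54. A count of 0 in a library allows at most 3 counts. Within single regions 69 members passed in cortex, 70 in striatum and 69 in cerebellum.

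Regions were compared next, over 54 libraries, to see where each channel gene is expressed. A member was called when it passed an adjusted p of 0.05 in edgeR's quasi-likelihood test and differed at least 2-fold. Cerebellum stood furthest from the forebrain regions. Against cortex, 12 of 73 tested members were higher in cerebellum, where 9.04% of all 20477 tested genes were, and 34 were lower, where 16.5% of all genes were. Against striatum, 18 were higher (11.9% of all genes) and 32 were lower (17.5% of all genes). Between cortex and striatum, 14 were higher in cortex (5.09% of all genes) and 4 were lower (4.03% of all genes). The median log2 difference of the 73 members, cerebellum minus cortex, was -0.71 where that of all genes was 0.02. It was -0.46 for cerebellum minus striatum, with -0.00 for all genes, and 0.23 for cortex minus striatum, with 0.00. A member that passed the filter only through the region where it is high, such as Kcnv2, had to differ, so these counts describe the 73 and not all 79.

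**Figure D2:**
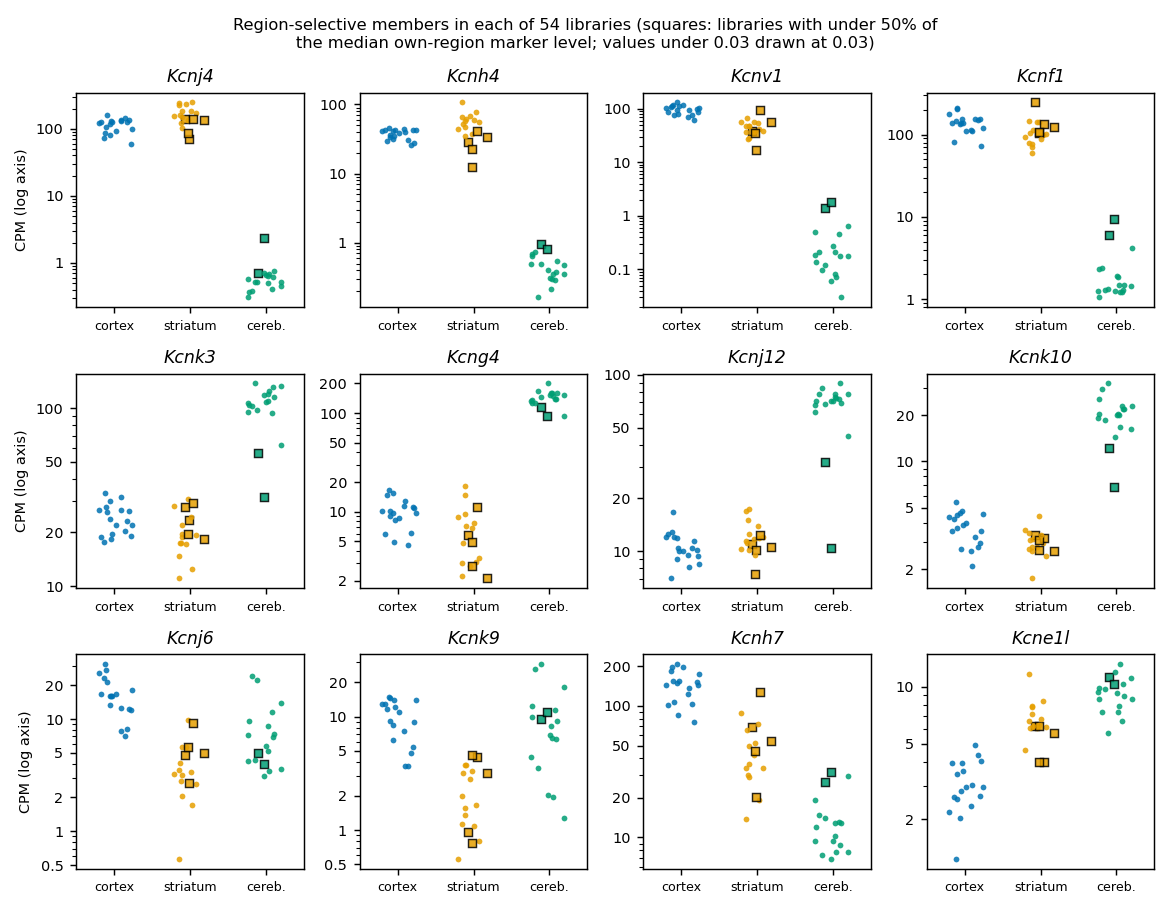
CPM on a log axis for 12 region-selective members, with 1 point per library and 18 libraries per region, and squares for the 7 libraries under 50% of their region's median marker level. Kcnj4, Kcnh4, Kcnv1 and Kcnf1 lie lower in the 18 cerebellar libraries than in any forebrain library, and Kcng4 and Kcnk10 lie higher.

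The members lowest in cerebellum were Kcnv1, Kcnj4, Kcnh4, Kcnh3 and Kcnf1, which fell by factors of 47.8 to 251 against a forebrain region. Kcnv1, a silent subunit, had a median of 96.5 CPM in cortex (62.5 to 130), 43.9 in striatum (16.7 to 93.4) and 0.181 in cerebellum (0 to 1.79). Every cerebellar library was below every forebrain library. The log2 difference, cerebellum minus cortex, was -7.97 (SE 0.31, adjusted p = 2.17e-28), and cerebellum minus striatum it was -6.89 (SE 0.30, adjusted p = 1.82e-26).

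Kcnj4, whose upstream bases are shown above, had a median of 124 CPM in cortex (59.6 to 158), 154 in striatum (69.3 to 246) and 0.552 in cerebellum (0.307 to 2.38). The ranges of cerebellum and forebrain did not touch. The difference was -7.48 (SE 0.22, adjusted p = 5.2e-34) against cortex and -7.96 (SE 0.22, adjusted p = 6.7e-35) against striatum. Its highest cerebellar value came from mouse M755, and without the libraries under 50% of the marker median the highest was 0.764 CPM.

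Kcnh3 and Kcnh4 encode ELK-type channels that open at subthreshold voltages. Kcnh3 had a median of 162 CPM in cortex (94.1 to 224), 167 in striatum (79.7 to 241) and 2.6 in cerebellum (1.54 to 5.49). Kcnh4 had a median of 39.5 CPM in cortex (26.2 to 46.1), 50 in striatum (12.6 to 107) and 0.439 in cerebellum (0.162 to 0.959). Neither gene overlapped between cerebellum and forebrain. Cerebellum minus cortex, Kcnh3 differed by -5.94 (SE 0.16, adjusted p = 4.29e-35) and Kcnh4 by -6.29 (SE 0.22, adjusted p = 1.81e-30). Between cortex and striatum the log2 difference of Kcnh3 was -0.00 (SE 0.13).

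Kcnf1, another silent subunit, had a median of 139 CPM in cortex (72.6 to 212), 105 in striatum (59.6 to 246) and 1.47 in cerebellum (1.05 to 9.44). Its differences from cerebellum to cortex and striatum were -5.88 (SE 0.27, adjusted p = 8.3e-26) and -5.58 (SE 0.26, adjusted p = 3.58e-25). Mouse M755 gave 9.44 CPM, and without the libraries under 50% of the marker median the highest cerebellar value was 4.15. Kcnq5, an M-current subunit, was among the other 29 members lower in cerebellum than in cortex, with medians of 116 CPM in cortex (73.2 to 153) and 1.8 in cerebellum (1.07 to 17) and a difference of -5.00.

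The members highest in cerebellum included a silent subunit, an inward rectifier and a leak channel. Kcng4 had a median of 142 CPM in cerebellum (92.8 to 200), 9.93 in cortex (4.59 to 16.5) and 5.36 in striatum (2.12 to 18.4). All 18 cerebellar libraries were above all forebrain libraries. It differed by 3.84 (SE 0.23, adjusted p = 6.3e-21) from cortex and by 4.43 (SE 0.24, adjusted p = 7.23e-23) from striatum.

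Kcnj12, a strong inward rectifier like Kcnj4, ran the other way, with a median of 71.2 CPM in cerebellum (10.4 to 89.2) against 10.3 in cortex (7.04 to 16.7) and 11.6 in striatum (7.48 to 17.5). Its lowest cerebellar value was that of mouse M755, inside the forebrain range, and without the libraries under 50% of the marker median the lowest was 44.8 CPM. The differences were 2.63 (SE 0.15, adjusted p = 4.6e-22) and 2.47 (SE 0.15, adjusted p = 3.8e-21).

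Kcnk10, a leak channel opened by membrane stretch and lipids, had a median of 20.1 CPM in cerebellum (6.84 to 32.1), 3.8 in cortex (2.1 to 5.46) and 3.02 in striatum (1.75 to 4.45). All cerebellar values lay above those of the forebrain. The differences were 2.41 (SE 0.13, adjusted p = 8.8e-23) and 2.76 (SE 0.13, adjusted p = 6.8e-25). Kcnv2, a silent subunit known from photoreceptors, had 359 reads over all cerebellar libraries, 31 in striatum and 9 in cortex. It passed the filter through cerebellum alone and so had to differ. It is counted among the called members, but no p-value is given for it.

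Cortex and striatum differed in other members. The 5 members furthest above striatum were Kcnk9, Kcnj6, Kcna3, Kcnt2 and Kcnh7. Kcnk9, an acid-sensitive leak channel, had a median of 9.99 CPM in cortex (3.64 to 15) and 1.82 in striatum (0.556 to 4.57). Kcnj6, a G protein-gated inward rectifier, had 16 CPM (7.08 to 31) and 3.45 (0.565 to 9.78). Kcna3, a delayed rectifier also known from T cells and microglia, had 2.91 CPM (0.516 to 4.35) and 0.668 (0.0348 to 1.36). The ranges overlapped for each, and in the test the log2 differences were 2.15 (SE 0.32, adjusted p = 2.3e-07), 2.02 (SE 0.28, adjusted p = 4e-08) and 1.92 (SE 0.37, adjusted p = 2.1e-05).

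Kcnt2, a sodium-activated channel, had a median of 32.5 CPM in cortex (18.8 to 55.8), 9.8 in striatum (3.49 to 25.3) and 0.769 in cerebellum (0.251 to 8.15), and Kcnh7, an ERG-type channel, had 147 CPM (75.7 to 208), 43.8 (13.8 to 127) and 12.4 (6.86 to 31.6). Both fell from cortex to striatum to cerebellum, each step with an adjusted p under 0.05. Cortex minus striatum, the differences were 1.70 (SE 0.30, adjusted p = 5.4e-06) for Kcnt2 and 1.60 (SE 0.22, adjusted p = 3.9e-08) for Kcnh7. Its exons overlap those of Gca on the other strand.

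Only 4 members were called higher in striatum than in cortex, and Kcne1l was the one among them with a median above 1 CPM. Kcne1l encodes an accessory subunit that lowers Kcnq channel currents. It had a median of 6.23 CPM in striatum (4 to 11.7), 2.96 in cortex (1.24 to 4.92) and 9.28 in cerebellum (5.68 to 13.1). Cortex minus striatum it differed by -1.07 (SE 0.13, adjusted p = 3.4e-09). Kcnn4, a calcium-activated channel of blood and immune cells, differed by -1.11 (SE 0.27, adjusted p = 0.00058) from a median of 13 counts in striatum and 5 in cortex. Without the libraries under 25% of the marker median Kcnn4 differed by -0.88, and without those under 50% by -0.99, both under 2-fold. The other 2 were Kcnk7 and Kcnv2. Kcnk7 passed the filter through striatum alone and so had to differ. It had a median of 5 counts in striatum and 2 in cortex, with 96 and 41 reads in all.

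Cortex and striatum were separated by no member in every library, and 0.21% and 0.117% of all tested genes lay wholly above or below. Between cerebellum and cortex 21 members lay wholly below in cerebellum (7.88% of all genes) and 5 wholly above (4% of all genes). Against striatum, 12 lay wholly below (5.35%) and 7 wholly above (3.73%).

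By subfamily, called members pointed one way in some subfamilies and both ways in others. Cerebellum minus cortex, 5 of 8 Kcnh genes, 3 of 5 Kcnq genes and 3 of 7 tested Kcna genes were called lower and none of these subfamilies had a member called higher. The 4 Kcng genes split into 3 lower and 1 higher (Kcng4), while Kcnc1 was higher and Kcnc2 lower. Of the 12 tested Kcnk genes 4 were higher and 4 lower, and of the 12 tested Kcnj genes 1 was higher and 4 were lower. Kcnd2 was the only called member of its subfamily there and was higher. Cerebellum minus striatum, the 7 tested Kcna genes split into 2 higher and 2 lower. The Kcnh genes (5 lower) and Kcnq genes (2 lower) again had none called higher.

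Partner genes of these channels gave a background of known assembly. Of 31 listed partners (large-conductance calcium-activated channel genes, beta subunits, Kv channel-interacting proteins, dipeptidyl peptidase-like subunits, sulfonylurea receptors, hyperpolarisation-activated channels and axonal anchors) 28 were tested. Against cortex, 5 were called higher in cerebellum (9.04% of all genes were) and 5 lower (16.5% of all genes). Against striatum 8 were higher (11.9% of all genes) and 4 lower (17.5% of all genes). The shares called lower were near those of all genes. Kcnip2, a calcium-binding partner of Kcnd channels, was lower in cerebellum than in cortex (log2 difference -5.197, SE 0.25, adjusted p = 2.2e-24), while Kcnd2 itself was higher there by 1.27. Kcnip4 (1.06) and Kcnip1 (1.10), from the same partner family, were higher in cerebellum than in cortex.

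Genotype was compared within each region to see whether a lower Mbd5 level moved these genes. No member passed an adjusted p of 0.05 in any region in edgeR's quasi-likelihood test, and none did in DESeq2. In edgeR, only Mbd5 passed in striatum and cerebellum and 2 genes in cortex (0.0107% of 18661 tested genes in cortex, 0.00539% of 18546 in striatum, 0.00551% of 18160 in cerebellum). At an unadjusted p under 0.05, cortex had 2 members higher in Mbd5+/GT (3.96% of all genes were) and 9 lower (4.51% of all genes) among 69 tested. Striatum had 1 higher (4.24%) and 2 lower (3.2%) among 70. Cerebellum had 0 higher (0.964%) and 3 lower (1.78%) among 69. DESeq2 gave 12, 3 and 2 members at an unadjusted p under 0.05 in the same order of regions.

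**Figure D3:**
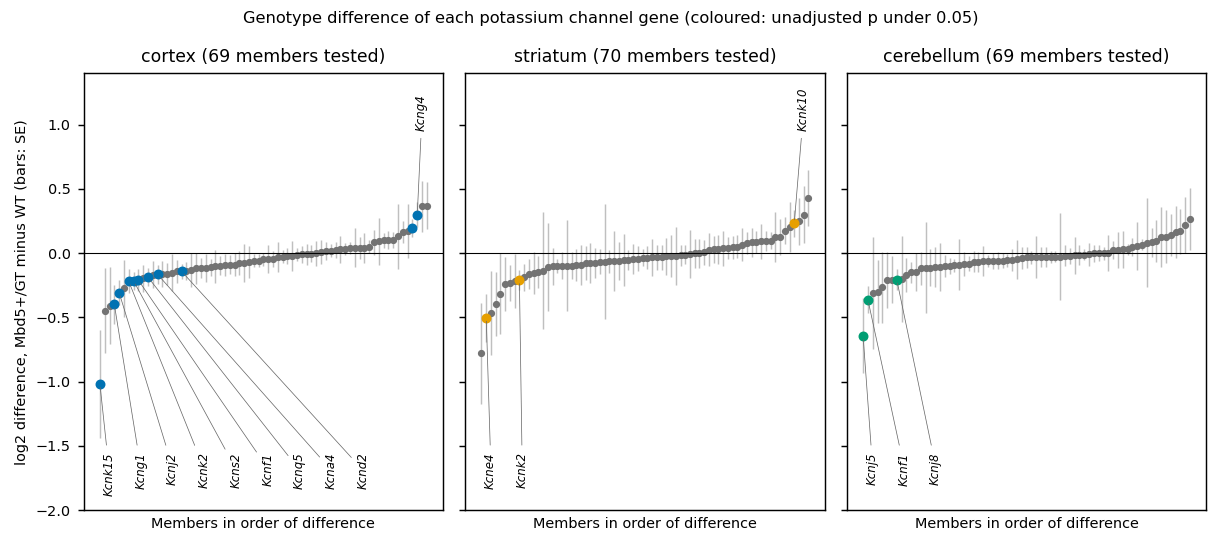
Log2 difference, Mbd5+/GT minus WT, of each tested member in 3 regions, sorted within a region, with SE bars, 10 Mbd5+/GT and 8 WT libraries per region. Coloured points had an unadjusted p under 0.05, 11 in cortex, 3 in striatum and 3 in cerebellum, and no point passed after adjustment.

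In cortex the smallest p belonged to Kcns2, a silent subunit. Its median was 25.1 CPM in Mbd5+/GT (22.7 to 30) and 30 CPM in WT (20.4 to 39.1). The groups overlapped, with 9 of 10 Mbd5+/GT libraries below the WT median. The log2 difference was -0.22 (SE 0.07, unadjusted p = 0.00554, adjusted p = 0.406). Kcnj2, a strong inward rectifier, had medians of 21.4 CPM (16.5 to 35.4) and 29.6 CPM (20.9 to 42.1) and a difference of -0.31 (SE 0.10, adjusted p = 0.412). Both differences were negative in each of the 3 litters, with 1 WT mouse in litter 2.

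Kcng4 was among the 2 cortical members with a positive difference at that threshold. It had a median of 10.6 CPM in Mbd5+/GT (6.1 to 15.6) and 8.37 CPM in WT (4.59 to 16.5), a difference of 0.30 (SE 0.10, adjusted p = 0.412). Kcnq5 had medians of 111 CPM (73.2 to 129) and 117 CPM (102 to 153) and a difference of -0.19 (SE 0.07, adjusted p = 0.485). The groups overlapped for both genes. Within litters Kcnq5 differed by -0.31 in litter 1, 0.05 in litter 2 and -0.14 in litter 3. Of the other members at that threshold, Kcng1, Kcnf1, Kcnd2, Kcnk15, Kcnk2 and Kcna4 had negative differences. Kcnk15 was near the floor, with 0 to 11 counts in Mbd5+/GT cortical libraries and 2 to 32 in WT.

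The cortical libraries also differed in their striatal marker sum, which ran from 292 to 2515 CPM in WT (median 1532) and from 367 to 1631 CPM in Mbd5+/GT (median 720). Of the 9 striatal marker genes, 2 were lower in Mbd5+/GT cortex at an unadjusted p under 0.05 and 0 were higher, and 4 of 5 choroid plexus markers were higher (median 1.43). Of 5 GABA interneuron markers 3 were lower (median -0.20), and their sum ran from 670 to 1178 CPM in Mbd5+/GT (median 830) and from 833 to 1274 CPM in WT (median 948). Of 5 Purkinje cell markers 2 were lower (median 0.04), and 1 of 5 astrocyte markers and the 1 tested hypothalamus marker were higher. The choroid plexus sum ran from 8.12 to 1275 CPM in Mbd5+/GT cortex and from 20.8 to 239 CPM in WT. Their part in the cortical differences was not tested.

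In striatum Kcne4, an accessory subunit, had the smallest p. Its median was 1.34 CPM in Mbd5+/GT (0.802 to 4.72) and 1.86 CPM in WT (0.975 to 2.43), and the groups overlapped. The difference was -0.50 (SE 0.19, adjusted p = 0.629). Kcnk2, a stretch-sensitive leak channel, had medians of 78.8 CPM (69.5 to 164) and 105 CPM (49 to 177) and a difference of -0.21 (SE 0.08, adjusted p = 0.629). Kcnk10 had medians of 3.14 CPM (2.61 to 4.45) and 2.88 CPM (1.75 to 3.34) and a difference of 0.23 (SE 0.11, adjusted p = 0.655). For Kcne4 the within-litter difference was 0.29 in litter 1, -0.49 in litter 2 and -0.34 in litter 3, so the sign differed between litters. For Kcnk2 it was -0.02, 0.11 and -0.48 in the same order. With the letter of the sample code (described below) as a covariate, Kcne4 had a difference of -0.03. Exons of Kcnk2 overlap those of A430027H14Rik on the other strand.

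Kcng3 and Kcnt2, next in striatum, were past no threshold. Kcng3, a silent subunit, differed by -0.78 (SE 0.39, unadjusted p = 0.0623) from medians of 0.327 CPM (0.0348 to 0.902) in Mbd5+/GT and 0.505 CPM (0.0964 to 1.71) in WT. Kcnt2 differed by 0.43 (SE 0.22, unadjusted p = 0.0665) from medians of 14.5 CPM (4.28 to 25.3) and 7.16 CPM (3.49 to 17.3). In litter 2 the Kcnt2 difference was -0.04, with 1 WT mouse. Within litters Kcng3 differed by 0.65 in litter 1, -1.21 in litter 2 and -0.38 in litter 3.

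In cerebellum the smallest p was that of Kcnf1, at its low cerebellar level. Its median was 1.27 CPM in Mbd5+/GT (1.05 to 9.44) and 1.9 CPM in WT (1.29 to 6.02), and the highest value of each group came from mice M755 and M754. The difference was -0.36 (SE 0.10, unadjusted p = 0.00198, adjusted p = 1). Within litters it was -0.91 in litter 1, 0.01 in litter 2 and 0.25 in litter 3, and the group that holds mouse M755 is Mbd5+/GT of litter 3. Kcnj8, the pore of vascular ATP-sensitive channels, had medians of 4.32 CPM (3.11 to 6.16) and 4.69 CPM (3.44 to 5.7) and a difference of -0.21 (SE 0.08). Kcnj5, a G protein-gated rectifier, had 0.222 CPM (0.0876 to 1) and 0.305 CPM (0.0647 to 1.37) and a difference of -0.64 (SE 0.29). Within litters Kcnj5 differed by -0.54 in litter 1, 0.73 in litter 2 and -0.09 in litter 3.

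Kcnk3 and Kcnj12 came next in cerebellum, with no p under 0.05. Kcnk3, an acid-sensitive leak channel, had medians of 105 CPM in Mbd5+/GT (31.5 to 132) and 109 CPM in WT (56.1 to 138), a difference of -0.10 (SE 0.05). Kcnj12 had medians of 70.8 CPM (10.4 to 89.2) and 74.2 CPM (32.1 to 83.8), a difference of -0.15 (SE 0.08). The lowest value of each gene in Mbd5+/GT belonged to mouse M755.

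The median genotype difference over tested members lay near 0. In cortex it was -0.05, beside -0.00 for all genes. In striatum and cerebellum it was -0.03, beside -0.01 and -0.00. Members with a negative sign numbered 46 of 69 in cortex, 47 of 70 in striatum and 51 of 69 in cerebellum, where 52.2%, 53.4% and 52.7% of all genes were negative. The lean depended on the fit. With litter and sex as covariates the negative members were 46.4% in cortex, 42.9% in striatum and 60.9% in cerebellum, and with the sample-code letter as a covariate they were 56.5%, 57.1% and 44.9%. Partner genes gave 1 higher and 3 lower of 28 in cortex at an unadjusted p under 0.05, where 3.96% and 4.51% of all genes were. In striatum they gave 3 higher and 1 lower, beside 4.24% and 3.2% of all genes, and in cerebellum 0 in either direction, beside 0.964% and 1.78%. Abcc8, the sulfonylurea receptor of ATP-sensitive channels, had the smallest p among them in cortex, with a difference of 0.23 (SE 0.06, adjusted p = 0.315).

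An interaction term over the 54 libraries compared the genotype effect of one region with that of another. Unlike the genotype fits within a region, this fit held no surrogate variables. The SE of Kcng2 was 0.57 in it, cortex against striatum, beside 0.18 in cortex and 0.21 in striatum in the genotype fits. A lack of calls therefore does not show that the effects are equal. No member reached even an unadjusted p of 0.05 among 73 in cortex against striatum (4.22% of all genes did), cerebellum against cortex (1.11%) or cerebellum against striatum (2.68%), and none passed after adjustment in edgeR or DESeq2. DESeq2 gave 0 at an unadjusted p under 0.05 as well. Without litter 2 the unadjusted counts were 3, 1 and 2 in the same order, with 0 after adjustment. The smallest unadjusted p, 0.0884, was that of Kcng2 in cortex against striatum, with a difference of effects of 0.99 (SE 0.57).

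Spread within a genotype differed widely between members. Among members with a mean of at least 1 CPM, the largest SD of log2 CPM within genotype was that of Kcng3 (1.24), Kcna5 (1.01) and Kcnj5 (0.96) in cortex, Kcnj5 (1.16), Kcng2 (1.00) and Kcng4 (0.95) in striatum, and Kcng1 (1.90), Kcnj14 (1.62) and Kcnc2 (1.44) in cerebellum. Kcna5, a delayed rectifier of muscle and vessels, ran from 1.69 to 22.6 CPM in cortex with a median of 7.68. Kcng2 ran from 0.731 to 15.4 CPM in striatum with a median of 2.54, the highest in WT mouse M761.

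Kcng1, Kcnj14 and Kcnc2 had their highest cerebellar values in the libraries of mice M755 and M754. For Kcng1 and Kcnj14 the mean reached 1 CPM only through these libraries, so their large spread was set by that choice. Their medians in the other 16 libraries were 0.251 and 0.34 CPM. Kcng1 stood at 16 CPM in mouse M755 and 7.56 in mouse M754, against 0.122 to 1.96 CPM in the other 16 libraries. Kcnj14, an inward rectifier, stood at 13.3 and 3.46 CPM against 0.0405 to 1.19. Kcnc2, a fast delayed rectifier of interneurons, stood at 80.3 and 61.9 CPM against 1.93 to 29.7. Among the 50 members whose median in those 16 libraries was at least 1 CPM, mouse M755 lay above all 16 in 20 (40%) and below all 16 in 14 (28%), where 24% and 31.7% of the 14256 genes with such a median did. Mouse M754 lay above in 19 (38%) and below in 10 (20%), where 20.1% and 21.8% of these genes did. These 2 libraries were also high in oligodendrocyte markers, at 30510 and 18320 CPM, where the medians were 6491 CPM in Mbd5+/GT and 5899 CPM in WT.

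**Figure D4:**
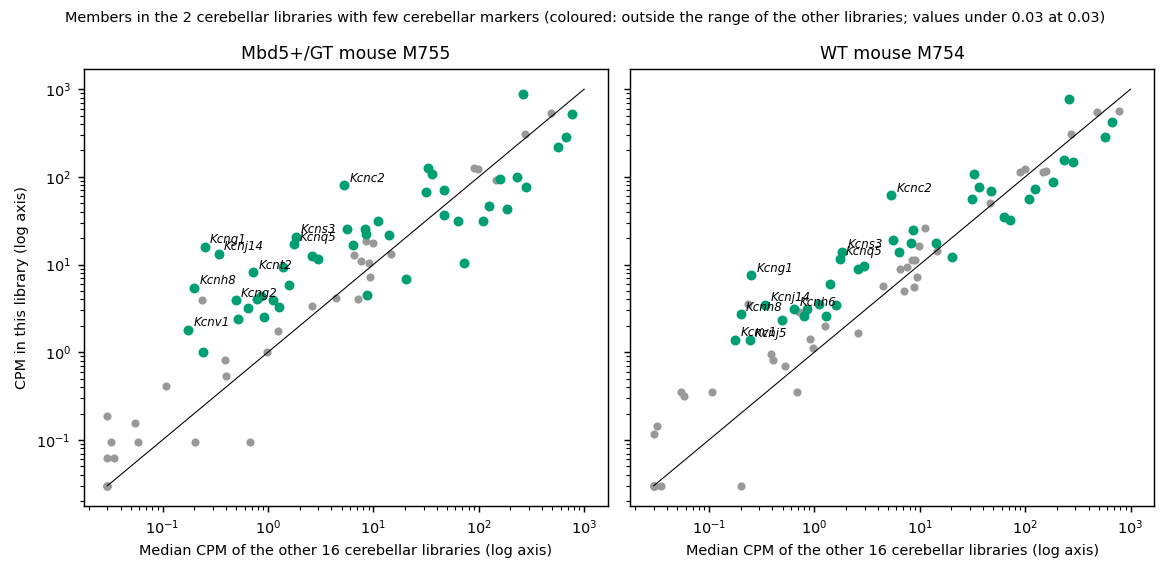
CPM of each member in the cerebellar libraries of Mbd5+/GT mouse M755 and WT mouse M754 against its median in the other 16 cerebellar libraries, both on log axes, with the line of equality. Coloured points lie outside the range of those 16 libraries, with Kcnc2 at 80.3 and 61.9 CPM far above the line and Kcnj12 at 10.4 CPM below it in mouse M755.

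Some members also moved with the letter that opens each sample code, which runs from A to H and whose meaning the labels do not give. Each letter marks 6 or 7 libraries, 2 or 3 per region, and each mouse carries a different letter in each of its 3 regions. Over the 54 libraries, with group in the model, 11 of 73 members differed between letters at an adjusted p under 0.05 in edgeR's quasi-likelihood test, where 16.7% of all genes did (11 of 73 is 15.1%). The share of members was near that of all genes. Among the 11 were Kcnk9, Kcna1, Kcna3, Kcnn3, Kcng3, Kcnq3, Kcna2, Kcnj11 and Kcns2. Without the libraries under 50% of the marker median 19 of 73 members differed, beside 26.6% of all genes. Within single regions no gene passed, with 5 of 69 members at an unadjusted p under 0.05 in cortex, 10 of 70 in striatum and 8 of 69 in cerebellum, where 3.83%, 5.69% and 8.16% of all genes were. Each of the 3 libraries of a mouse enters this test as a separate sample.

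Kcnk9 spanned 2.27 log2 units between its highest letter (D) and its lowest (H), with an adjusted p of 0.00061. In cerebellum the mean was 16.3 CPM at D (9.13 to 28.9, n = 3) and 1.62 CPM at H (1.27 to 1.97, n = 2). In cortex it was 12.9 CPM at D and 4.54 CPM at H, and in striatum 2.58 CPM and 0.659 CPM. The libraries of the 2 letters did not overlap in any region. Kcnk9 had the smallest letter p of the tested members, and D and H are the ends of its own range. That choice favours a lack of overlap, which therefore adds no support.

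Kcna1, an axonal delayed rectifier chosen here after its values were seen, spanned 1.74 log2 units (adjusted p = 0.00111). In cerebellum its mean was 111 CPM at E and 27.9 CPM at H, in cortex 84.2 and 43.6 CPM, and in striatum 45.2 and 9.11 CPM. Kcna3 spanned 2.77 log2 units (adjusted p = 0.00147). The letters cut across regions, so the region differences could be set letter by letter. Cortex was above striatum in all 8 letters for Kcnk9 (differences of 1.38 to 2.65), Kcna3 (1.13 to 2.54), Kcnj6 (0.84 to 3.69), Kcnt2 (1.00 to 2.22) and Kcnh7 (1.08 to 2.49). Of the members called higher in striatum, Kcne1l (-1.68 to -0.53) and Kcnn4 (-1.58 to -0.24) were below 0 in all 8 letters, while Kcnk7 (-2.09 to 0.32) and Kcnv2 (-1.14 to 0.22) were above 0 in 1 of the 8. The members set letter by letter were named for their region difference in these same libraries. That choice favours a shared sign over the letters, which therefore adds no support.

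**Figure D5:**
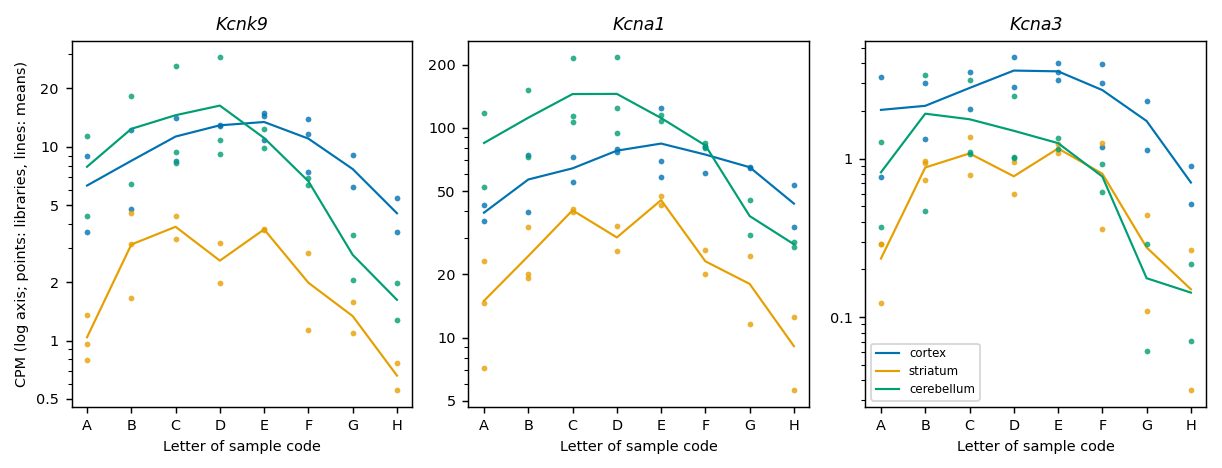
CPM on a log axis of Kcnk9, Kcna1 and Kcna3 by the letter of the sample code, with points for libraries and lines for the mean of each letter, by region. Kcnk9 and Kcna3 are lowest at H in the 3 regions, while Kcna1 is lowest at A in cortex, with Kcnk9 in cerebellum falling from a mean of 16.3 CPM at D to 1.62 CPM at H.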

How the data were processed

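Poly(A) RNA libraries of cortex, striatum and cerebellum from 18 mice were used, 54 in all. According to the study's methods and the submitters' processing notes, the authors checked reads with FastQC 0.10.1, aligned them to GRCm38 with STAR 2.4.2 and deposited raw read counts per Ensembl gene, with no pooling. The strand used in counting is not given in the sources used here. The 92 spike-in rows were left out, and 0 columns were unused. Columns were matched to mice by the labels' names.

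Genes with counts above 4 in at least 8 libraries were tested in R 4.3.3 with edgeR 4.0.16 (quasi-likelihood test, trimmed-mean scaling, Benjamini-Hochberg adjustment over all tested genes). Genotype was fitted within each region with surrogate variables from sva 3.50.0 (4 in cortex, 4 in striatum, 2 in cerebellum). Region differences and interactions used all libraries, with no surrogate variables. log2 CPM used a prior count of 2, and tables and figures were made with pandas 2.3.3, numpy 2.4.6 and matplotlib 3.10.9. DESeq2 1.42.0, other filters and covariates, and left-out litters or libraries were alternatives. The fits were also run on simulated counts with independent libraries and no hidden factors. Those runs do not show how the fits behave with libraries paired by mouse or poor in region markers. P-values of the genotype tests measure the spread between mice that remains beside the surrogate variables. The main region, interaction and letter fits take the libraries of a mouse as separate samples. Their p-values measure the spread between libraries.

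The 3 libraries of a mouse pair by animal: the median correlation of their deviations from group means was 0.164 between cerebellum and cortex, 0.0911 between cortex and striatum and 0.0618 between cerebellum and striatum, beside -0.0103, -0.00588 and -0.00495 for different mice. No 2 libraries of a group agreed within sampling noise (219 pairs, lowest chi-square per gene 8.26). Genes were named for the smallest genotype p (5 per region), the largest called region differences (5 each way), the highest level per length in a subfamily and region, and the largest spread (3 per region). Some named genes are not reported here. The members and lists were chosen with earlier results of these data known.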

Additional observations from a re-analysis of the deposited data

Results flagged for a closer look

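In 215 groups of 8 or 10 libraries over 42 named members, 25 had a highest or lowest library that stood apart by Dixon's criterion, where chance flags about 1 in 20 groups. The cerebellar library of Mbd5+/GT mouse M755 accounted for 19 of them, and its granule cell markers stood at 1.62% of the region's median. It was above the other 9 in Kcna5 (4.02 CPM), Kcnf1 (9.44 CPM), Kcng1 (16 CPM), Kcnh2 (125 CPM), Kcnj10 (873 CPM), Kcnj14 (13.3 CPM), Kcnk2 (21.5 CPM), Kcnq5 (17 CPM), Kcns1 (5.83 CPM), Kcnt2 (8.16 CPM) and Kcnu1 (3.92 CPM). It was below them in Kcnc1 (286 CPM), Kcnd2 (76.7 CPM), Kcnj12 (10.4 CPM), Kcnk1 (101 CPM), Kcnk10 (6.84 CPM), Kcnk3 (31.5 CPM), Kcnn2 (36.9 CPM) and Kcnt1 (217 CPM).

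The cerebellar library of WT mouse M754, with granule cell markers at 32.5% of the median, was above the other WT libraries in Kcnh2 (108 CPM) and below them in Kcnt1 (289 CPM). Single values that stood apart elsewhere were Kcnh3 at 5.49 CPM in the cerebellum of Mbd5+/GT mouse M758, Kcne4 at 0.7 CPM in the cerebellum and Kcnt1 at 404 CPM in the striatum of Mbd5+/GT mouse M764, and Kcnc2 at 13.5 CPM in the repeated striatal library of WT mouse M752.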

How the results depend on the processing

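No member passed an adjusted p of 0.05 for genotype under the alternatives run with edgeR and DESeq2, and 151 of 180 alternative counts stayed within 1.5 times. At an unadjusted p under 0.05, cortex (2 members higher, 9 lower) had 1 higher and 3 lower without surrogate variables, 2 lower with litter and sex as covariates, 6 higher and 5 lower with at least 10 counts in every library, 5 higher and 5 lower without litter 2, and 1 higher with the sample-code letter as covariate. Striatum (1 higher, 2 lower) had 1 lower without surrogate variables, 0 lower with 1 surrogate variable fewer, 1 lower with litter and sex, 0 higher and 4 lower without a filter, 2 higher and 1 lower without litter 2, 0 and 0 with the letter, 0 higher and 1 lower without the repeated libraries, and 3 or 4 higher without libraries under 25% or 50% of the marker median. Cerebellum (0 higher, 3 lower) had 1 higher without litter 2, 0 lower without surrogate variables, with litter and sex or with the letter, and 1 lower with 1 surrogate variable fewer. Kcnt2 in striatum turned to -0.013 without litter 2, and Kcnj8 in cerebellum to 0.0202 with the letter. The cause of these changes was not tested.

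With at least 10 counts in every library, which leaves 55 members, 9 members were higher and 1 lower in cortex than in striatum, and 20 were lower in cerebellum than in striatum. With the mouse as a replicate block (paired by animal), 20 members were called between cortex and striatum, 48 between cerebellum and cortex and 50 between cerebellum and striatum, of which 18, 45 and 49 were also called without it. Alternatives with the letter or without marker-poor libraries were chosen after seeing the data. Depth limits Kcnv2, Kcnk7 and Kcnn4, whose median was at most 20 counts in each region.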
